A study of Sus scrofa with 6 samples.

Results

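The genes described here are 10 components of Wnt signaling in pig skin, out of 14900 mRNAs measured: the ligands WNT10B and WNT11, the receptors FZD2, FZD4 and FZD10, the co-receptor LRP6, the secreted inhibitors SFRP4 and SFRP5, and the transcription factors LEF1 and TCF7L1. They were chosen as the rows whose Ensembl identifiers carry these symbols in the study's own lists of mRNAs. Those lists hold genes that the study had called on the same 6 samples. The direction, size, p values and number of calls of the 10 genes are therefore not independent evidence of a difference. Shares of all mRNAs are set beside them for scale only and are no test of the 10 genes. Other genes of the pathway, taken from lists by role, are given after them.

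Each of 3 female Bama pigs, 2 years old, gave 1 sample of white back skin and 1 of black buttock skin, cut 8 mm deep (n = 3 per skin). No treatment or genetic change separated the groups. Color and body site differed together in every sample, so their effects cannot be told apart. Poly(A) RNA was sequenced, and levels are given as FPKM, fragments scaled by transcript length and by mapped fragments, which allows levels of different genes to be compared per length. A sample of whole skin holds many cell types, and fewer cells of a type and less RNA per cell cannot be told apart in it.

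Wnt proteins are secreted signals that bind Frizzled receptors together with the co-receptors LRP5 or LRP6. In the canonical branch, binding stabilizes β-catenin, which enters the nucleus and activates genes with the LEF/TCF factors, while other branches act on cell polarity and calcium. Secreted Frizzled-related proteins (SFRPs) carry a Frizzled-like domain and can bind Wnt proteins outside the cell. In skin the pathway is known for its part in the formation and cycling of hair follicles, in the dermal papilla, and in the development of melanocytes from the neural crest.

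All 10 genes had a higher mean FPKM in black than in white skin, and a higher FPKM in black skin within each of the 3 pigs. The share of all mRNAs that were higher in black skin within each pig was not computed. For 9 of them every white sample was below every black sample, an arrangement found in 25.7% of all mRNAs, and FZD10 was the exception. Of the 10, 6 passed both thresholds as lower in white skin (WNT11, FZD2, FZD4, LRP6, SFRP4 and SFRP5), against 3.62% of all mRNAs (2.62% were higher in white skin), and 4 did not (WNT10B, FZD10, LEF1 and TCF7L1). The thresholds were an adjusted p below 0.05 in limma with Benjamini-Hochberg adjustment over the 14900 mRNAs and an absolute log2 fold change above 1. Log2 fold changes are white minus black skin on the log2(FPKM + 0.5) scale, which understates the change of genes with low FPKM. With no adjustment 9 of the 10 had a p below 0.05, against 28.4% of all mRNAs in either direction. The median log2 fold change was -1.35 over the 10 genes and -0.31 over all mRNAs, of which 69.1% had a negative value. With quantile normalization the median of all mRNAs was -0.03, and the share of all calls that were lower in white skin went from 58.0% to 31.0%. Upper-quartile scaling gave a median of -0.12 and a share of 33.0%. Under both scalings the 10 log2 fold changes stayed negative, and WNT11, FZD4, SFRP4 and SFRP5 passed both thresholds, against 1.46% of all mRNAs lower in white skin with quantile normalization.

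**Figure D1:**
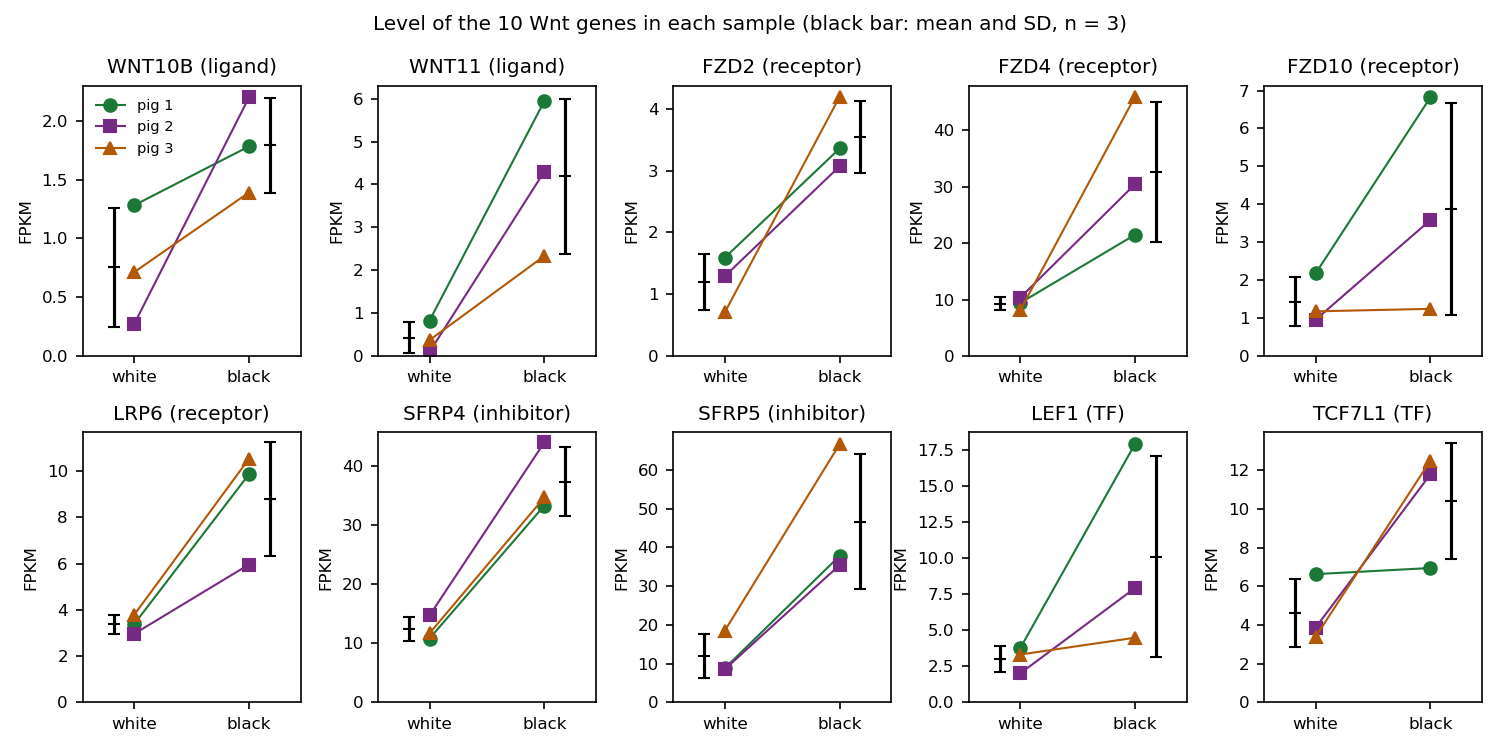
FPKM of the 10 Wnt genes in white and black skin, 1 panel per gene with its own linear axis from 0. Each line joins the samples of 1 pig, and the black bars give the mean and SD (n = 3). Every line rises from white to black skin, least for FZD10 and LEF1 in pig 3 and for TCF7L1 in pig 1.

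The order of the levels was similar in both skins. In white skin SFRP4 (12.4 FPKM), SFRP5 (12.0) and FZD4 (9.27) had the highest means, followed by TCF7L1 (4.63), LRP6 (3.38), LEF1 (3.03), FZD10 (1.43), FZD2 (1.20), WNT10B (0.756) and WNT11 (0.429). Neighbors in that order had overlapping samples, except FZD4 and TCF7L1. Black skin had SFRP5 (46.6 FPKM), SFRP4 (37.3) and FZD4 (32.6) at the top, then TCF7L1 (10.4), LEF1 (10.1), LRP6 (8.78), WNT11 (4.19), FZD10 (3.88), FZD2 (3.54) and WNT10B (1.79). There, too, the samples of neighbors overlapped except for FZD4 and TCF7L1 and for FZD2 and WNT10B, and LRP6, whose lowest sample was at 5.96 FPKM, stayed just above WNT11, whose highest was at 5.94 FPKM. WNT11 was the lowest of the 10 in white skin and stood above WNT10B in every black sample.

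Among the ligands, WNT11 had the largest fold of the 10 genes. It is a Wnt protein best known for acting through the branches that do not use β-catenin, and its gene lies at chr9:10413182-10435158 (Sscrofa11.1, ENSSSCG00000022347). Its FPKM was 0.824, 0.0942 and 0.367 in the white samples of pigs 1, 2 and 3 and 5.94, 4.30 and 2.33 in their black samples. The groups did not overlap, and the lowest black sample was above the highest white sample by more than the whole white range. The mean was 0.429 ± 0.369 FPKM (SD, n = 3) in white and 4.19 ± 1.81 (SD, n = 3) in black skin, a ratio of the means of 9.78. Within pigs the ratio of black to white was 7.21, 45.6 and 6.34, and the highest of these belongs to pig 2, whose white sample had the lowest level. The log2 fold change was -2.33 (SE 0.42), and the adjusted p was 0.0253 in limma with Benjamini-Hochberg adjustment.

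WNT10B, a canonical ligand known for hair follicle growth and for restraining fat cell formation, was low in both skins (ENSSSCG00000000182, chr5:14997377-15013928). Its RefSeq span overlaps that of WNT1, so the assignment of reads between these genes is uncertain. WNT10B was at 1.28, 0.271 and 0.713 FPKM in the white samples and at 1.78, 2.20 and 1.39 FPKM in the black samples of pigs 1, 2 and 3. The lowest black sample stood only just above the highest white sample. Means were 0.756 ± 0.507 (SD, n = 3) and 1.79 ± 0.405 FPKM. The log2 fold change of -0.94 (SE 0.36) did not pass the test (limma, adjusted p = 0.141).

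The balance between ligands differed between the skins, given here as a description without a test. The 12 Wnt genes that could be named in the table summed to between 14.1 and 19.9 FPKM in white and between 22.2 and 40.8 FPKM in black skin. WNT11 made up 0.670% to 4.14% of that sum in white and 10.5% to 17.5% in black skin. WNT5A, another ligand known for signaling outside the β-catenin branch, made up 20.0% to 41.3% in white and 8.33% to 15.3% in black skin. The ratio of WNT11 to WNT5A was between 0.0162 and 0.207 in white and between 0.687 and 1.75 in black samples, and the ratio of WNT11 to WNT10B between 0.347 and 0.643 in white and between 1.67 and 3.33 in black samples.

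Among the receptors, FZD4 had the highest level. Frizzled-4 is a receptor for Wnt proteins and for norrin, and is known for its role in the growth of blood vessels (ENSSSCG00000014920, chr9:20714995-20721460). White samples of pigs 1, 2 and 3 had 9.39, 10.3 and 8.09 FPKM, and the black samples 21.5, 30.4 and 46.0 FPKM. The white samples lay close together, while the black samples differed among themselves by more than the gap between the groups, with pig 3 highest. Means were 9.27 ± 1.12 FPKM (SD, n = 3) in white and 32.6 ± 12.4 FPKM in black skin, a ratio of 3.52. This gave FZD4 a log2 fold change of -1.70 (SE 0.30), with an adjusted p of 0.0241 (limma).

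FZD2, a Frizzled known for binding WNT5A among other ligands, was at 1.59, 1.29 and 0.708 FPKM in the white samples and at 3.36, 3.07 and 4.20 FPKM in the black samples of pigs 1, 2 and 3 (ENSSSCG00000029838, chr12:18740417-18742301). The lowest white and the highest black sample both came from pig 3. The log2 fold change was -1.28 (SE 0.31), with an adjusted p of 0.0484 (limma), next to the threshold. With a block for the pig the adjusted p was 0.0513, with a pseudocount of 0.1 it was 0.0516, and with quantile normalization it was 0.157 at a log2 fold change of -0.88, so the call was lost in each.

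FZD10, a Frizzled known for canonical signaling, was the one gene whose skins overlapped (ENSSSCG00000009751, chr14:24919483-24922554). Its FPKM was 2.17, 0.954 and 1.18 in the white samples and 6.82, 3.58 and 1.24 in the black samples of pigs 1, 2 and 3. In pigs 1 and 2 the black sample was higher by a ratio of 3.14 and 3.76, and in pig 3 the ratio was 1.06. In limma FZD10 had a log2 fold change of -1.00 (SE 0.52) with an adjusted p of 0.246 (limma), and the unadjusted p also missed 0.05. Leaving out 1 sample at a time gave values from -1.55 to -0.51.

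LRP6, the co-receptor whose cytoplasmic tail binds axin once Wnt is bound, had 3.38, 2.96 and 3.79 FPKM in the white samples and 9.86, 5.96 and 10.5 FPKM in the black samples of pigs 1, 2 and 3 (ENSSSCG00000000625, chr5:60149041-60318719). Every black sample was above every white sample, and pig 2 had the lowest value of both skins. The mean was 3.38 ± 0.411 FPKM (SD, n = 3) in white and 8.78 ± 2.47 FPKM in black skin. The log2 fold change was -1.23 (SE 0.29), with an adjusted p of 0.0465 (limma). Under quantile normalization it was -0.88 with an adjusted p of 0.109, which ended the call.

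The make-up of the Frizzled family is described without a test. The summed FPKM of the 9 Frizzled genes in the table was between 40.7 and 50.5 in white and between 71.9 and 100.1 in black skin. FZD7, which is not among the 10 genes, was the most abundant Frizzled in every white sample with 33.3% to 40.1% of the sum, and FZD4 was second with 18.6% to 22.9%. In black skin FZD4 was the most abundant Frizzled in every sample, with 29.9% to 45.9%, and FZD7 held 16.5% to 28.3%. FZD7 itself had a log2 fold change of -0.15 (SE 0.25, limma adjusted p = 0.706), and its FPKM was 17.2 ± 3.29 (SD, n = 3) in white and 19.1 ± 3.81 in black skin. The ratio of FZD4 to FZD7 was between 0.472 and 0.598 in white and between 1.24 and 2.79 in black samples. FZD7 was named after its values were seen.

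**Figure D2:**
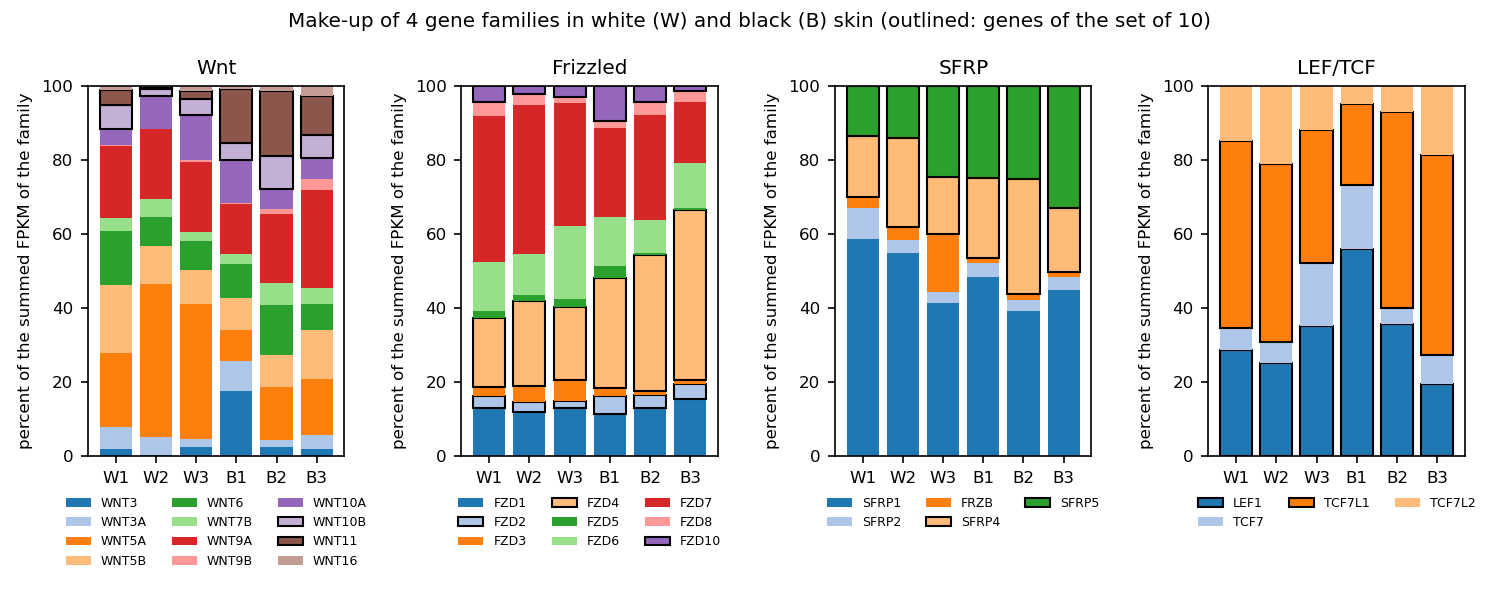
Share of each gene in the summed FPKM of the Wnt ligand, Frizzled, SFRP and LEF/TCF families, in percent, for each sample (W white, B black, numbered by pig). Bars add up to 100% and genes of the set of 10 are outlined. FZD4 takes 18.6% to 22.9% of the Frizzled sum in white and 29.9% to 45.9% in black skin, and WNT11 goes from at most 4.14% to at least 10.5% of the Wnt sum.

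Among the secreted inhibitors, SFRP4 had the narrowest range of ratios between pigs. SFRP4 is a secreted Frizzled-related protein found in connective tissue (ENSSSCG00000035299, chr9:108404314-108414335). Its FPKM was 10.8, 14.7 and 11.7 in the white samples and 33.3, 44.0 and 34.7 in the black samples of pigs 1, 2 and 3. Pig 2 was highest in both skins, and the ratio of black to white was 3.08, 2.99 and 2.97 in the 3 pigs. The mean was 12.4 ± 2.05 FPKM (SD, n = 3) in white and 37.3 ± 5.82 FPKM in black skin. The log2 fold change was -1.55 (SE 0.23) with an adjusted p of 0.0150 (limma), the lowest of the 10.

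SFRP5, the closest relative of SFRP1 and known in fat tissue as an antagonist of WNT5A, had 8.82, 8.59 and 18.5 FPKM in the white samples and 37.8, 35.4 and 66.6 FPKM in the black samples of pigs 1, 2 and 3 (ENSSSCG00000010529, chr14:109120382-109125655). Pig 3 was high in both skins, and the ratio of black to white stayed between 3.59 and 4.29. The mean was 12.0 ± 5.67 FPKM (SD, n = 3) in white and 46.6 ± 17.3 FPKM in black skin. SFRP5 had a log2 fold change of -1.95 (SE 0.37) with an adjusted p of 0.0279 (limma).

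The summed FPKM of the 5 SFRP genes in the table, FRZB included, was between 61.2 and 75.5 in white and between 141 and 202 in black skin. SFRP5 held 13.4% to 24.5% of the sum in white and 24.8% to 33.0% in black skin, while the shares of SFRP4 overlapped (15.5% to 24.0% and 17.2% to 31.1%). The sum of SFRP4 and SFRP5 was larger than that of WNT10B and WNT11 by a ratio of 9.32 to 63.7 in white and of 9.20 to 27.2 in black samples, so this ratio of inhibitor to ligand overlapped between the skins.

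Among the transcription factors, LEF1 and TCF7L1 differed in which black samples were high. LEF1, a partner of β-catenin expressed in the hair matrix and the dermal papilla, lies at chr8:113824511-113944078 (ENSSSCG00000009148) and overlaps 2 lncRNA genes of RefSeq. Its FPKM was 3.76, 2.01 and 3.32 in the white samples and 17.9, 7.94 and 4.49 in the black samples of pigs 1, 2 and 3. Pig 1 stood far above the others, pig 3 was only a little above the highest white sample, and the ratio of black to white was 4.77, 3.94 and 1.35. LEF1 had a log2 fold change of -1.41 (SE 0.47) and missed the adjusted threshold (limma, adjusted p = 0.104), also when the pig was a block (adjusted p = 0.0598).

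TCF7L1, a LEF/TCF factor known mainly as a repressor and for its place in hair follicle stem cells, had 6.63, 3.87 and 3.40 FPKM in the white samples and 6.95, 11.8 and 12.5 FPKM in the black samples of pigs 1, 2 and 3 (ENSSSCG00000008241, chr3:59438152-59458988). In pig 1 the ratio of black to white was 1.05, and in pigs 2 and 3 it was 3.05 and 3.68. Means were 4.63 ± 1.75 FPKM (SD, n = 3) and 10.4 ± 3.02 FPKM. The log2 fold change was -1.10 (SE 0.34), with an adjusted p of 0.0857 (limma). The ratio of LEF1 to TCF7L1 overlapped between the skins, with 2.58 in the black sample of pig 1, 0.359 in that of pig 3 and 0.521 to 0.979 in the white samples.

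**Figure D3:**
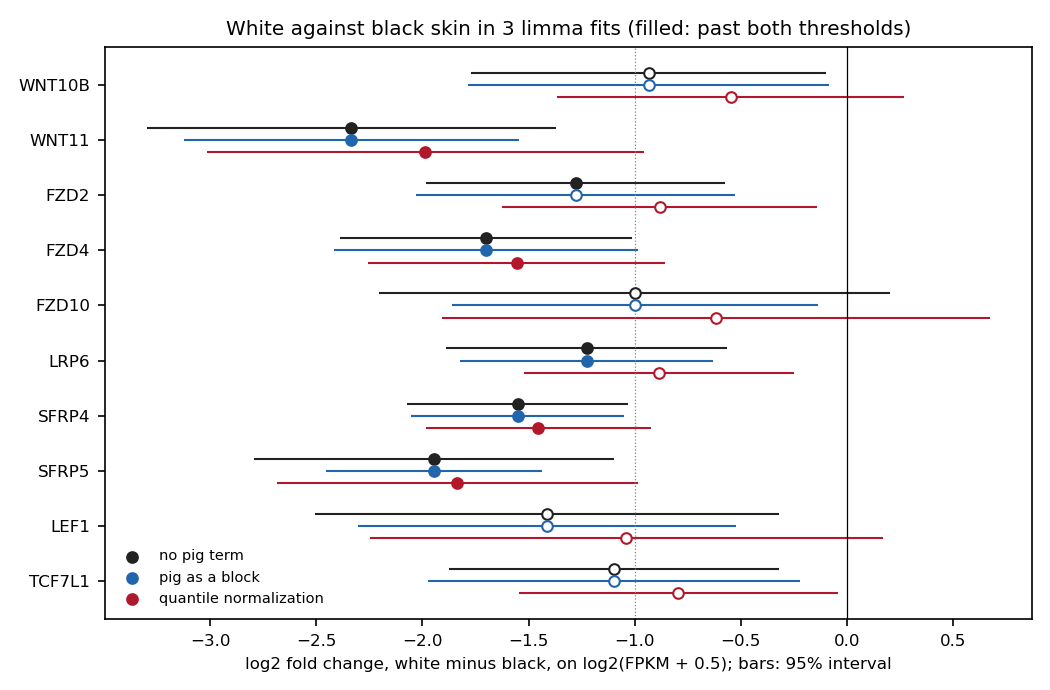
Log2 fold change (white minus black skin, log2(FPKM + 0.5)) of the 10 genes with its 95% interval, in 3 limma fits: without a pig term, with the pig as a block, and after quantile normalization. Filled points passed both thresholds. SFRP4, SFRP5, FZD4 and WNT11 are filled in all 3 fits, FZD2 in the first, LRP6 in the first and second, and the other 4 in none.

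The calls rested on single samples to differing degrees. Of the 6 called genes, 1 was left without white replicate 1 (WNT11), 0 without white replicate 2, 2 without white replicate 3 (SFRP4 and SFRP5), 4 without black replicate 1 (WNT11, FZD4, SFRP4 and SFRP5), 1 without black replicate 2 (SFRP4) and 2 without black replicate 3 (WNT11 and SFRP4). Calls among all mRNAs fell from 930 to between 35 and 847 in the same fits. Without white replicate 2, 7 of the 10 genes had an unadjusted limma p below 0.05, against 18.1% of all mRNAs. The fold changes of the called genes moved less: over the 6 fits SFRP4 stayed between -1.68 and -1.43, SFRP5 between -2.30 and -1.66, FZD4 between -1.96 and -1.42, WNT11 between -2.66 and -2.05, LRP6 between -1.47 and -1.08 and FZD2 between -1.45 and -1.05.

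The black samples in which the genes were highest fell into groups. WNT11, FZD10 and LEF1 were highest in the black sample of pig 1 and next in that of pig 2. WNT10B and SFRP4 were highest in the black sample of pig 2, and FZD2, FZD4, LRP6, SFRP5 and TCF7L1 in that of pig 3. In white skin, 6 of the 10 genes were lowest in the sample of pig 2.

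Markers of several skin cell types moved with these genes. Hair follicle keratinocyte markers, the keratins and regulators of the growing hair, summed over 16 of 17 listed genes to 219, 1.43 and 162 FPKM in the white and to 13002, 528 and 397 FPKM in the black samples of pigs 1, 2 and 3. All 16 were highest in black replicate 1 and lowest in white replicate 2, and KRT27, KRT31, KRT35, KRT72, KRT73 and KRT82 were listed at 0 in at least 1 white sample. In limma 0 of the 16 passed both thresholds, 9 had an unadjusted p below 0.05, and 8 passed with a block for the pig. Black replicate 1 was also the sample in which WNT11, FZD10 and LEF1 were highest. The sum of melanocyte markers was highest there (194 FPKM, with 9 of 11 markers highest there). The sum of fibroblast markers was too (11476 FPKM), but only 3 of those 10 markers were highest there. With black replicate 1 and white replicate 2 both left out, a setting chosen after the data were seen, 0 of the 10 genes passed both thresholds in limma, and neither did any of the 14900 mRNAs. In that fit 7 of the 10 had an unadjusted p below 0.05, against 20.1% of all mRNAs, and the median log2 fold change of the 10 was -1.31.

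Adipocyte markers (8 of 8, ADIPOQ, PLIN1 and LEP among them) summed to between 148 and 552 FPKM in white and between 884 and 2092 FPKM in black skin, without overlap, and 6 of the 8 were called lower in white skin. Both their highest white and highest black sum were in pig 3, where SFRP5 and LRP6 were also highest in both skins. Fibroblast markers (10 of 10) summed to between 2640 and 5325 FPKM in white and between 7695 and 11476 FPKM in black skin, with 5 called lower in white skin. Endothelial markers (8 of 10) summed to between 78.7 and 96.4 FPKM in white and between 161 and 446 FPKM in black skin, with 4 called lower in white skin. Their sum was lowest among the black samples in pig 1, as were FZD4, TCF7L1 and SFRP4.

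Melanocyte markers (11 of 12) summed to between 7.95 and 11.0 FPKM in white and between 45.3 and 194 FPKM in black skin, with 6 called lower in white skin and with TYR, TYRP1, MLANA, TRPM1 and SLC24A5 listed at 0 in at least 1 white sample. Mural markers (6 of 6) went the other way in sum, between 977 and 2178 FPKM in white and between 187 and 681 FPKM in black skin, through the smooth muscle genes ACTA2 and MYH11. MYH11 was called higher in white skin (log2 fold change 2.69, limma adjusted p = 0.0320), while RGS5 and PDGFRB were called lower in white skin. Interfollicular keratinocyte markers (7 of 11) overlapped, with 77.0 to 732 FPKM in white and 324 to 952 FPKM in black skin. Immune markers (8 of 8) also overlapped in sum, with 11.4 to 291 FPKM in white and 23.3 to 75.1 FPKM in black skin. LYZ made up most of that sum in the white samples of pigs 1 and 3, at 275 and 149 FPKM. In black skin LYZ was at most 29.5 FPKM. Of the 8 immune markers, 7 had a higher mean in black skin, LYZ being the exception, and 0 were called (limma). Of 8 skeletal muscle markers 2 could be named, CKM and ACTA1. They summed to between 29.8 and 66.4 FPKM in white and between 1.41 and 5.01 FPKM in black skin, nearly all of it CKM. CKM was called higher in white skin (log2 fold change 3.89, limma adjusted p = 0.0107). ACTA1 was at most 1.77 FPKM, overlapped between the skins and was not called (limma adjusted p = 0.528). The part of these cell types in the values of the Wnt genes was not tested.

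**Figure D4:**
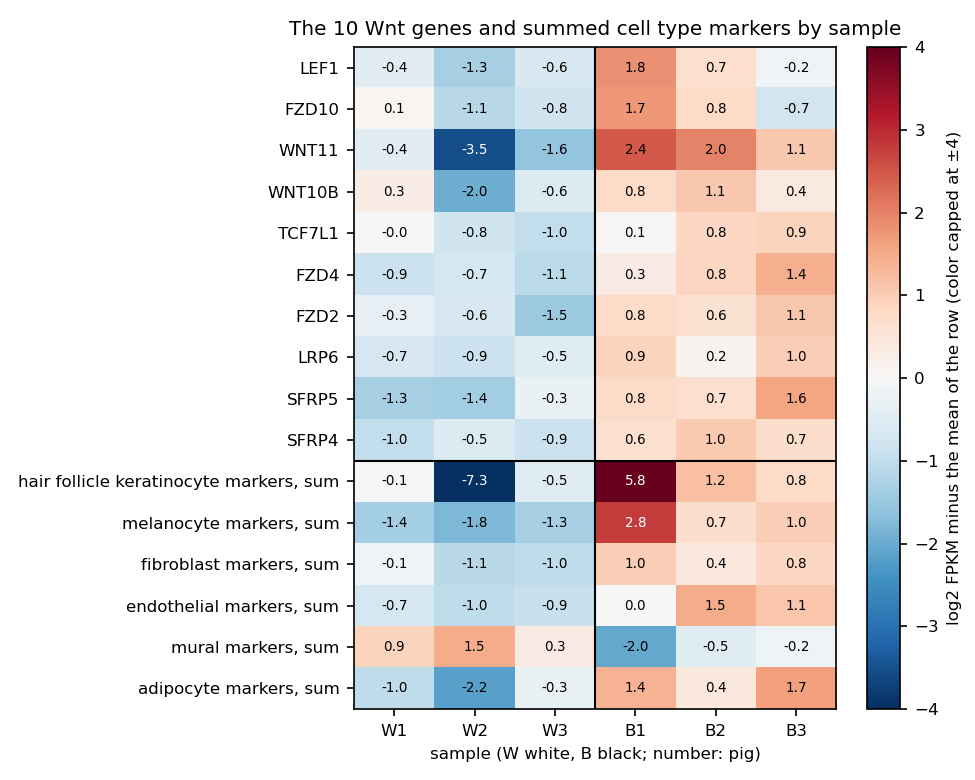
Level of the 10 Wnt genes and of the summed markers of 6 cell types in each sample, as log2 FPKM minus the mean of the row (W white, B black, numbered by pig; color capped at 4 in either direction). LEF1, FZD10 and WNT11 are highest in the black sample of pig 1, as are the sums of hair follicle keratinocyte, melanocyte and fibroblast markers. Of the 10 fibroblast markers only 3 are highest there. FZD2, FZD4, LRP6, SFRP5 and TCF7L1 are highest in that of pig 3, as is the sum of adipocyte markers.

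Of 109 other genes of the pathway listed by role, 93 could be named in the table. Of the 93, 7 were called lower in white skin (7 of 93 against 3.62% of all mRNAs) and 0 higher (limma), with 39 lower and 2 higher at an unadjusted p below 0.05, which 28.4% of all mRNAs had in either direction. Their median log2 fold change was -0.70, and 83 were negative, or 75 with quantile normalization. With the pig as a block 13 were called, all lower in white skin, against 6.42% of all mRNAs. With upper-quartile scaling 3 were called, all lower in white skin, against 281 of 14900 mRNAs. Without white replicate 2 the number called was 0, against 35 of 14900 mRNAs in either direction. In that fit 29 had an unadjusted limma p below 0.05, against 18.1% of all mRNAs. Without white replicate 1 the number called was 3 (219 of all mRNAs), and without white replicate 3 it was 2 (321). Without black replicate 2 or 3 it was 1 in each case (200 and 192 of all mRNAs).

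Among the 10 other ligands 0 passed the thresholds (limma, 1 with an unadjusted p below 0.05), and their median log2 fold change was -0.57. WNT5A was one of 10 genes of the pathway with a positive value. It had 3.98, 5.81 and 5.94 FPKM in the white samples and 3.40, 3.53 and 3.39 FPKM in the black samples of pigs 1, 2 and 3, so every white sample was above every black sample. WNT5A had a log2 fold change of 0.52 (SE 0.26), with an adjusted p of 0.224 (limma). WNT9A, the other abundant ligand, had 3.21 ± 0.620 FPKM (SD, n = 3) in white and 5.31 ± 0.640 FPKM in black samples (log2 fold change -0.66, limma adjusted p = 0.145).

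Genes for the release of Wnt proteins and R-spondins had a median of -0.99 over 6 genes, of which 0 were called (limma, 3 with an unadjusted p below 0.05). WLS, which carries Wnt proteins to the cell surface, had 5.30 ± 0.795 FPKM (SD, n = 3) in white and 13.9 ± 8.41 FPKM in black skin, with the highest value, 23.4 FPKM, in the black sample of pig 1 (log2 fold change -1.16, adjusted p = 0.109). PORCN, the enzyme that attaches the lipid that Wnt proteins need, had a log2 fold change of -0.96 (adjusted p = 0.102).

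Of 16 other receptors 1 was called. MFRP, a membrane protein with a Frizzled-like domain, had 11.8, 4.20 and 5.41 FPKM in the white samples and 33.2, 65.5 and 28.2 FPKM in the black samples of pigs 1, 2 and 3, with a log2 fold change of -2.52 (SE 0.44, limma adjusted p = 0.0231). Its RefSeq span overlaps a lncRNA gene. RYK, a Wnt receptor outside the Frizzled family, had 17.5 ± 3.07 FPKM (SD, n = 3) in white and 25.1 ± 4.99 FPKM in black samples (log2 fold change -0.50, adjusted p = 0.216). ROR2, a receptor of WNT5A, ran opposite to the 10 genes, with 5.93 ± 1.40 FPKM (SD, n = 3) in white and 2.93 ± 0.267 FPKM in black skin and no overlap. Its log2 fold change was 0.88 (SE 0.27) with an adjusted p of 0.0847 (limma), and with quantile normalization it was 1.24 with an adjusted p of 0.0423, a call (3.24% of all mRNAs were called higher in white skin under it). WNT5A, ROR2 and DACT3 were the 3 of the 93 genes with every white sample above every black sample, against 9.62% of all mRNAs. ROR2 and DACT3 were named after their values were seen.

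Of 11 other secreted inhibitors, SFRP1 and DKK2 were called lower in white skin. SFRP1, the most abundant SFRP, had 38.5, 33.5 and 31.2 FPKM in the white samples and 74.0, 55.6 and 90.4 FPKM in the black samples of pigs 1, 2 and 3 (log2 fold change -1.06, SE 0.24, limma adjusted p = 0.0417). DKK2, a ligand of LRP6 known for keeping Wnt signaling low in hairless skin, had 4.93 ± 0.290 FPKM (SD, n = 3) in white and 11.7 ± 3.45 FPKM in black samples (log2 fold change -1.13, adjusted p = 0.0465), and its RefSeq span overlaps a lncRNA gene. IGFBP4, an IGF-binding protein that also binds Frizzled and LRP6, had a log2 fold change of -1.50 with an adjusted p of 0.0670, and of 0.0282 with the pig as a block.

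Among 26 cytoplasmic components, DAB2 and NKD2 were called lower in white skin. Both are known to dampen Wnt signaling, DAB2 as an endocytic adaptor and NKD2 as a binding partner of Dishevelled. DAB2 had 6.56, 6.52 and 11.5 FPKM in the white samples and 26.7, 43.7 and 36.9 FPKM in the black samples of pigs 1, 2 and 3, with a log2 fold change of -2.08 (SE 0.30, limma adjusted p = 0.0150). The RefSeq span of DAB2 overlaps a lncRNA gene. NKD2 had 3.16 ± 0.665 FPKM (SD, n = 3) in white and 11.7 ± 2.31 FPKM in black samples, at a log2 fold change of -1.73 (SE 0.26, adjusted p = 0.0179). CTNNB1, which encodes β-catenin and had the highest mean FPKM over the 6 samples in these lists, had 66.0 ± 18.8 FPKM (SD, n = 3) in white and 114 ± 42.1 FPKM in black skin, a difference that did not pass (log2 fold change -0.77, adjusted p = 0.166). CSNK1A1, the kinase that primes β-catenin for destruction, had 71.8 ± 4.16 and 73.5 ± 19.4 FPKM (SD, n = 3).

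Of 12 other transcription factors and cofactors, TLE2, a Groucho-type co-repressor, was called lower in white skin. It had 2.61, 1.77 and 1.87 FPKM in the white samples and 9.35, 22.5 and 5.09 FPKM in the black samples of pigs 1, 2 and 3 (log2 fold change -2.08, SE 0.49, limma adjusted p = 0.0460). TLE1, a relative of TLE2, had 12.0 ± 1.59 FPKM (SD, n = 3) in white and 14.6 ± 3.76 FPKM in black samples (log2 fold change -0.24, adjusted p = 0.556). CTBP1, another co-repressor, had a log2 fold change of -0.50 (adjusted p = 0.276).

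The 12 genes listed as targets of the pathway had the lowest median of the 7 lists by role, -1.19, and 11 of the 12 were negative. BMP4, a growth factor of the hair follicle and dermis, was called, with 2.72, 3.57 and 2.35 FPKM in the white samples and 21.2, 8.66 and 6.98 FPKM in the black samples of pigs 1, 2 and 3 (log2 fold change -1.77, SE 0.41, limma adjusted p = 0.0458). MYC had 16.7 ± 3.89 FPKM (SD, n = 3) in white and 36.5 ± 14.2 FPKM in black samples (log2 fold change -1.06, adjusted p = 0.0770), and passed once the pig was a block (adjusted p = 0.0385). CD44, the cell surface receptor for hyaluronan, had 47.9 ± 15.0 and 73.0 ± 4.91 FPKM (SD, n = 3; log2 fold change -0.65, adjusted p = 0.145). AXIN2, widely read as a sensor of canonical signaling and named here after its values were seen, had 2.94 ± 0.803 FPKM in white and 5.31 ± 0.643 FPKM in black skin (SD, n = 3), at a log2 fold change of -0.78 and an adjusted p of 0.121 (limma).

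**Figure D5:**
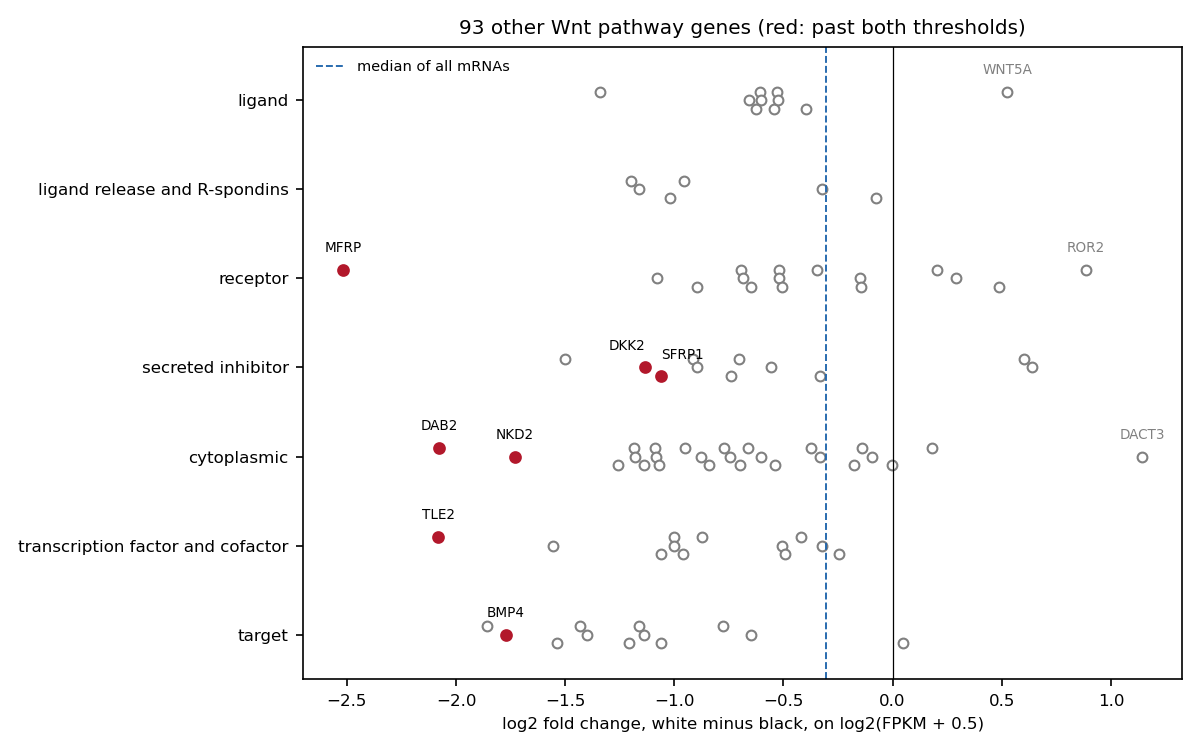
Log2 fold change (white minus black skin, log2(FPKM + 0.5)) of the 93 other genes of the Wnt pathway by role, 1 point per gene. Red points passed both thresholds, the dashed line is the median of all mRNAs (-0.31), and most points lie to its left, with WNT5A, ROR2 and DACT3 to the right of 0.

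The genome around the 10 genes held 15 lncRNAs of the deposited table within 100 kb, near 7 of them: 5 near FZD10, 3 near SFRP5, 2 each near WNT11 and FZD4 and 1 each near WNT10B, LRP6 and LEF1. None overlapped the gene, and none was listed near FZD2, SFRP4 or TCF7L1. Of the 15, 0 passed both thresholds in limma on log2(FPKM + 0.1), against 1.33% of all 7566 lncRNAs. An unadjusted p below 0.05 was found for 2, but the share of all lncRNAs with such a p was not computed. Nothing is therefore read from that count. TCONS_00078848 lies 3696 bp from LRP6 and had 0, 0.138 and 0.172 FPKM in the white samples and 0.918, 1.06 and 0.318 FPKM in the black samples of pigs 1, 2 and 3 (log2 fold change -2.08, SE 0.96, adjusted p = 0.563). Its locus, chr5:60322415-60322499, is shorter than the minimum length by which the paper defines lncRNAs. Others of the 15 are too, TCONS_00077562 near WNT10B among them (chr5:15093169-15093229). TCONS_00036760, 46055 bp from SFRP5 and named after its values were seen, had a log2 fold change of -2.12 (SE 1.00, adjusted p = 0.584).

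The most abundant lncRNA near each of the other genes had a mean of at most 0.531 FPKM over the 6 samples. Near FZD10, TCONS_00030737 was listed at 0 in all white samples and in the black sample of pig 3 and at 1.87 FPKM in the black sample of pig 1, where FZD10 was also highest (log2 fold change -1.71, adjusted p = 0.691). TCONS_00107314 near FZD4 had 0.358 ± 0.147 FPKM (SD, n = 3) in white and 0.676 ± 0.201 FPKM in black skin (adjusted p = 0.691). For TCONS_00106352 near LEF1, TCONS_00036761 near SFRP5, TCONS_00077562 near WNT10B and TCONS_00110476 near WNT11 the skins overlapped, with log2 fold changes between -0.52 and 0.42. A value of 0 in the files can also be a failed estimate, and absence was not inferred from it.

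The mRNAs whose pattern was most like that of the 10 genes were found by the Pearson correlation, over the 6 samples, of log2(FPKM + 0.5) with the mean of the 10 scaled profiles. The 5 named mRNAs with the highest r were OTUD7A (0.997), RDH10 (0.997), THRB (0.996), NOXO1 (0.995) and LGALS12 (0.994). These values describe 6 samples that fall into 2 skins, and any gene with a steady difference between the skins gives a high r. THRB, a thyroid hormone receptor, had 3.25, 2.25 and 2.48 FPKM in the white samples and 6.16, 5.82 and 6.08 FPKM in the black samples of pigs 1, 2 and 3. LGALS12, a galectin of fat cells, had 0.813, 0.415 and 0.666 FPKM in the white and 3.99, 4.26 and 3.36 FPKM in the black samples.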

How the data were processed

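The deposited files hold FPKM of mRNAs and lncRNAs that the authors calculated with StringTie (1.3.3 in the submitters' processing notes) from strand-specific poly(A) libraries. The study's methods give TopHat with Sscrofa11.1 for alignment and the notes list HISAT2 2.0.4. The authors kept mRNAs above 0.5 and lncRNAs above 0.1 FPKM in at least 1 sample. FPKM sums over mRNAs were 408598 to 501424 per sample. Counts are not part of the files, which leaves the depth of single values unknown, and no counting interval is given.

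Names came from an Ensembl gene table and, for 183 more mRNAs (TCF7L1 among the 10 genes), from the study's gene lists, 12419 of 14900 in all. Of 2125 identifiers named in both, 75 differed. Positions are those of RefSeq for Sscrofa11.1.

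The skins were compared with limma 3.58.1 (R 4.3.3, trend option) on log2(FPKM + 0.5), or + 0.1 for lncRNAs, over all features, with Benjamini-Hochberg adjustment and no pig term. The fit was tested on simulated data with planted changes. It recovered 25.4%, 59.7% and 83.3% of genes with planted log2 changes of 1.5, 2 and 3, and 2.61% of its calls were false. A gene that was not called can therefore still differ. The 200 planted changes were all lower in white skin and in genes above a minimum level. Noise was drawn for each gene separately, without shifts that many genes share in 1 sample or pig. These rates therefore need not hold for the real fit. The replicate number marks the pig: deviations of mRNAs from the skin means correlated at 0.208, 0.360 and 0.204 within the 3 pigs. Between different pigs they correlated at -0.312 to 0.120, values that subtracting the skin means pushes down. The fit was therefore also run with a block for the pig. Samples of a skin came from separate animals. Other alternatives were pseudocounts of 0.1 and 1, upper-quartile scaling, quantile normalization, no trend, unadjusted p, a filter on mean FPKM above 1, and each sample left out. Tables and figures were made in Python 3.11.15 with pandas 2.3.3, NumPy 2.4.6 and Matplotlib 3.10.9.

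Genes named are the 10; in each role list, those past both thresholds (at most 4) and the 2 with the highest mean FPKM; for lncRNAs within 100 kb, those past both thresholds and the most abundant per gene; and the 5 mRNAs most alike in pattern. Any other is said to be named after its values were seen. The genes and lists were chosen with earlier results of these data known. No sequences are shown.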

Additional observations from a re-analysis of the deposited data

How the results depend on the processing

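The number of the 10 genes called was 6, and lay between 4 and 8 under other pseudocounts, the pig as a block, both scalings, no trend, unadjusted p and a filter on low values. Leaving out 1 sample at a time gave 0 to 4 of the 10 genes, 35 to 847 of all mRNAs (930 with all samples) and 0 to 5 of the 93 other Wnt genes (7 with all samples). Only without black replicate 1 did the counts stay within 1.5 times, and the lowest counts came without white replicate 2. With the pig as a block, 1439 mRNAs and 13 of the other Wnt genes were called, and FZD2 alone of the 10 genes changed its call. Unadjusted p gave 2288 and 27, and upper-quartile scaling gave 852 and 3. Without white replicate 2 and black replicate 1 together, an alternative added after the data were seen, limma called 0 of the 10 genes, 0 of the other Wnt genes and 0 of all mRNAs, with 7, 24 and 2989 at an unadjusted p below 0.05. Of 140 values of single genes under alternatives, 102 kept their side of the threshold, 38 fell below it and 0 changed direction. The 102 include all 14 alternatives of each of WNT10B, FZD10, LEF1 and TCF7L1, which had no call to lose. Of 14 alternatives, SFRP4 kept its call in 11, WNT11 in 10, SFRP5 in 9, FZD4 in 8, LRP6 in 5 and FZD2 in 3. The cause of the lost calls was not tested; fits with a sample left out have fewer samples. Of the lncRNAs near the 10 genes, 0 were called in limma in every alternative. From 0 to 2 had an unadjusted p below 0.05, a share not computed for all lncRNAs. With 1 sample left out, 0 to 5 of all 7566 lncRNAs were called, so a count of 0 near the genes says little there. With 3 pigs, genes near the thresholds change call easily, color and body site cannot be told apart, and the depth behind single values is unknown.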

Other observations

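DACT3, a cytoplasmic regulator of Wnt signaling, was the gene of the pathway lists with the highest log2 fold change (white minus black, log2(FPKM + 0.5)), at 1.14 (SE 0.40, limma adjusted p = 0.112). Its FPKM was 12.8, 14.0 and 5.79 in the white samples and 2.77, 5.15 and 5.60 in the black samples of pigs 1, 2 and 3, so the lowest white and the highest black value, both from pig 3, lay close together without overlap. Of the 93 genes, 42 had every white sample below every black sample, against 25.7% of all mRNAs. DACT3 and the genes of the next paragraph were named after their values were seen.

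The planar cell polarity genes VANGL2 and PRICKLE2 passed both thresholds with a block for the pig (limma adjusted p = 0.0437 and 0.0337) and missed them without it (0.0506 and 0.0516), at log2 fold changes of -1.08 and -1.26. CSNK1E and MITF, the latter also on the list of melanocyte markers, did the same, with adjusted p of 0.0389 and 0.0440 with the block and 0.0819 and 0.0640 without it.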
